A study of Mus musculus with 8 samples.

Results

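The genes described here encode histones and centromere proteins, 42 of the 17613 genes in a table of read counts from mouse brain. The rule that picks them reads gene symbols only, those of the replication-dependent histone clusters (Hist1 to Hist3), of the replacement histones and histone variants (H1f, H2af and H3f3) and of the centromere proteins (Cenp and a letter). By role they fall into 16 replication-dependent histone genes, 10 genes for replacement or variant histones and 16 CENP genes. The study compared brains of C57BL/6 mice with a knockout of Uhrf2, labelled KO, with wild-type brains, labelled WT, with 4 libraries of polyadenylated RNA in each group. UHRF2 is a chromatin protein with a domain that recognises modified cytosine. The labels used here give neither the deleted part of Uhrf2 nor the age or sex of the mice, nor whether each library is a separate animal, so p-values measure only the spread between these libraries, which may be technical.

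DNA in the nucleus is wound around histones. Replication-dependent histones are made in S phase to package new DNA, and their mRNAs end in a short stem-loop in place of a poly(A) tail, whereas replacement histones are made all through the cell cycle, also in neurons that no longer divide, from polyadenylated mRNAs. CENP-A, encoded by Cenpa, takes the place of histone H3 in centromeric nucleosomes. The constitutive centromere-associated network, a set of CENP proteins that binds these nucleosomes, holds the kinetochore in dividing cells.

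The stem-loop is shown first because it marks the histone mRNAs that a library of polyadenylated RNA is least suited to count. In GENCODE M21 transcripts it was found in 10 of the 16 replication-dependent genes. Over all 141767 transcripts it was in 0.0381%, which came from 45 genes. The lines below give 30 bases around it, written as DNA from 5′ to 3′ with the stem-loop in capitals. They stand for both linker histone and core histone genes and for all 3 spellings of the stem-loop that occurred.
Hist1h1c: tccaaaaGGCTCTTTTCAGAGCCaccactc
Hist1h2ac: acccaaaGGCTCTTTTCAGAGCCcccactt
Hist3h2a: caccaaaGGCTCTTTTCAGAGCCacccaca
Hist3h2ba: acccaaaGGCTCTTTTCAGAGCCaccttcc
Hist1h4h: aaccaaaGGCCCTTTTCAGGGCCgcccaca
Hist1h4j: ccctaaaGGTCCTTTTCAGGACCaccacat

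The same 16 bases occurred in 8 of the 10 genes, among them Hist1h1c and Hist3h2a, while the H4 genes Hist1h4h and Hist1h4j each had a spelling of their own. In each of the 10 genes the annotated transcript runs on past the stem-loop, by 46 bases in Hist1h4h and by up to 2010 bases in Hist1h2ac. No match says only that these letters are not in the annotated transcript. For Hist2h2bb the transcript searched was that of Gm42743, the name GENCODE M21 gives its identifier. Its lack of a match is thus no result for the histone gene.

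Cenpa is the gene on which the comparison turns, and its promoter is shown with that of H2afj, the member with the next lowest p. Both are from RefSeq on GRCm38.p6 and run from 250 bases before the start of transcription to 30 bases after it, 5′ to 3′ on the plus strand, at chr5:30666636-30666915 for Cenpa and chr6:136807998-136808277 for H2afj. Capitals mark CCAAT, or ATTGG on the other strand, and TTTGAA, or TTCAAA on the other strand. CCAAT boxes are common in promoters of histone and cell cycle genes, and TTTGAA is the core of the cell cycle homology region found in genes of late cell cycle.
Cenpa: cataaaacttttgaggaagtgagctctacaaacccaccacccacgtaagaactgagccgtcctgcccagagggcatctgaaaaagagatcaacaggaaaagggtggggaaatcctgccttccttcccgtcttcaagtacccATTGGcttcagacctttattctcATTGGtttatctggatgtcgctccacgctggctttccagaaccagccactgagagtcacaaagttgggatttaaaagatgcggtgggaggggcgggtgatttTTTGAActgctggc
H2afj: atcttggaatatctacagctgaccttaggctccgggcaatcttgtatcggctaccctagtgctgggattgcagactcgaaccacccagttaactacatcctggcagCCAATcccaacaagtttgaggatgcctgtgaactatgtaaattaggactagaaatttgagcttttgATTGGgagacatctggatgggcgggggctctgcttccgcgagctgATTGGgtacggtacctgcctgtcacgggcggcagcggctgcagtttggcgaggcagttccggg

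In Cenpa, ATTGG began 109 and 86 bases before the start, and TTTGAA began at base 17 after it. This start is base 30666886 in RefSeq, whereas in GENCODE M21 the gene begins earlier, at 30666777. Both ATTGG begin at or after that base, so their place before the start depends on the annotation. In H2afj, CCAAT began 144 bases and ATTGG 78 and 33 bases before the start, with no TTTGAA in the window. Over windows of 300 bases, CCAAT on either strand was in 37.4% of all 32851 promoters, in 10 of 14 windows of replication-dependent histones, in 6 of 9 of replacement and variant histones and in 12 of 18 of CENP genes. TTTGAA was in 17.9% of all promoters, in 2 of the 14 windows of replication-dependent histones, in 1 of the 9 of replacement and variant histones and in 4 of the 18 of CENP genes. TATAAA, or TTTATA on the other strand, which can overlap, was in 13.6% of all promoters, in 6 of the 14 windows of replication-dependent histones, in 1 of the 9 of replacement and variant histones and in 1 of the 18 of CENP genes. Windows were found for 38 of the 42 genes, some of which had several, and a match is a description of the letters and not of a bound site.

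Library totals ran from 13550420 to 19065173 counts in the libraries labelled KO and from 11891350 to 19773921 in those labelled WT. Levels are given in CPM, the count relative to the scaled total of its library, and 3 counts correspond to 0.15 to 0.252 CPM. Uhrf2, which checks the labels, stood at 86.4, 88.6, 88.4 and 91.8 CPM in the libraries labelled KO, against 58.0, 47.7, 57.2 and 58.9 CPM in those labelled WT, a log2 fold change of 0.68 (SE 0.06; adjusted p = 5.45e-06 by edgeR; exact two-sided permutation p = 0.0286, the smallest that 4 against 4 libraries can give). This goes against the label of a knockout, and counts per gene do not show which exons were read, so the libraries are named by label here, and all directions given depend on the labels being right. The 10 neuron markers of a list that includes Snap25 summed to 8170 to 8880 CPM in the libraries labelled KO and to 7890 to 8400 CPM in those labelled WT (n = 4 each). In bulk tissue, fewer cells of a type and less RNA per cell cannot be told apart.

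Among the 42 genes, Cenpa was the only member that passed the test across all genes, 2.25-fold higher in the libraries labelled KO. No histone gene passed, whether replication-dependent, an H2A variant, a gene of histone H3.3 or a replacement linker histone. None of the other 15 CENP genes passed either. Of the 36 members with enough counts to be tested, 1 rose (2.78%), 0 fell and 35 did not pass at an adjusted p under 0.05. Of all 15902 tested genes, 1.43% passed, 1.14% higher and 0.289% lower, so 1 call among 36 genes is near that background. The median log2 fold change was 0.024 over the 36 members and -0.005 over all tested genes.

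**Figure D1:**
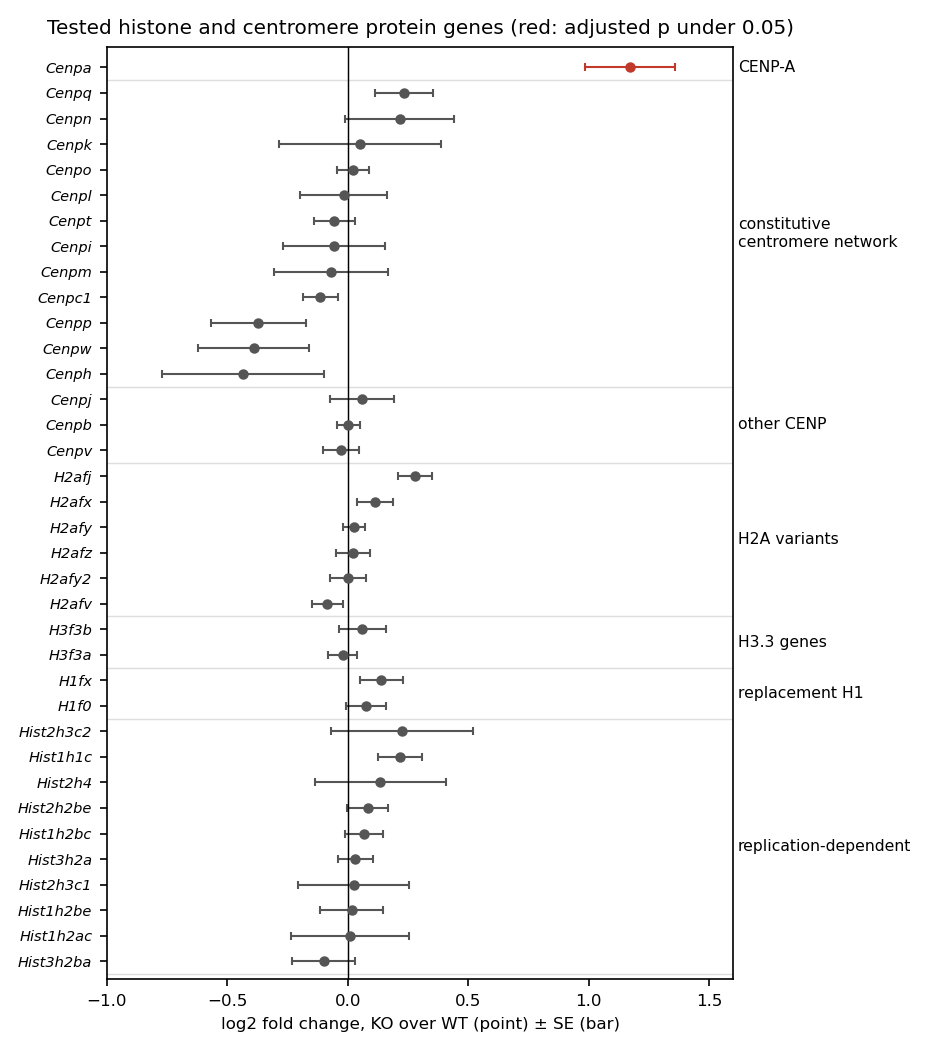
Log2 fold change, KO-labelled over WT-labelled libraries (points, n = 4 each), with its standard error (bars) for the 36 tested genes, grouped by role. Cenpa, at 1.17, lies apart from all others, which run from -0.43 to 0.28.

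The count of Cenpa was 32, 38, 44 and 42 reads in the libraries labelled KO, against 12, 19, 24 and 15 reads in those labelled WT. Scaled to library size this is 2.39, 2.42, 2.33 and 2.80 CPM in the libraries labelled KO, against 1.01, 1.16, 1.20 and 0.971 CPM in those labelled WT. Every library labelled KO lay above every library labelled WT, and the gap between the groups was wider than the range within either. The means were 2.48 ± 0.217 CPM in the libraries labelled KO and 1.09 ± 0.112 CPM in those labelled WT (SD, n = 4 each), with a log2 fold change of 1.17 (SE 0.19, adjusted p = 0.00201 by edgeR quasi-likelihood).

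With 156 reads in all in the libraries labelled KO and 70 in those labelled WT, counting limits the precision: the ratio was 2.25, with an exact 95% binomial interval of 1.69 to 3.03 that covers counting error only. Counting alone gives a standard error of 0.21 on the log2 scale, slightly above that of the fit. The standard error of the fit may thus be too small for this gene. With DESeq2 it was 0.28. Without any 1 library, the log2 fold change ran from 1.11 to 1.23 and the adjusted p from 0.00426 to 0.0109.

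Cenpa (ENSMUSG00000029177) lies on chromosome 5 from 30666777 to 30674830 on the plus strand of GRCm38. None of its exons overlaps another annotated gene, and 0.0% of the 50-base stretches of its longest coding transcript occur in a transcript of another gene. The gene directly before it on the same strand, Slc35f6, which encodes a solute carrier family member, had 36.9 ± 0.755 CPM in the libraries labelled KO and 33.9 ± 0.764 CPM in those labelled WT (SD, n = 4 each; log2 fold change 0.12, SE 0.05, adjusted p = 0.351 by edgeR). Dpysl5, a gene of neuron development on the other side of Cenpa, had 52.4 ± 2.46 CPM in the libraries labelled KO and 47.3 ± 0.823 CPM in those labelled WT (SD, n = 4 each; log2 fold change 0.15, SE 0.05, adjusted p = 0.198 by edgeR). For both neighbours the groups did not overlap, but neither passed.

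**Figure D2:**
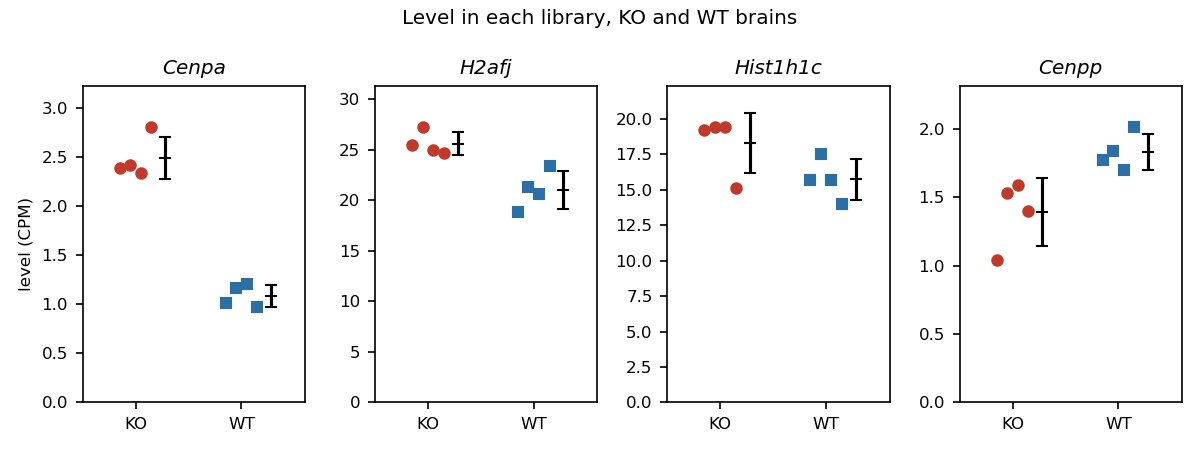
Level in CPM (axis from 0) of Cenpa, H2afj, Hist1h1c and Cenpp in each library, labelled KO (circles) and labelled WT (squares), with the mean and SD of 4 libraries beside them. The groups do not overlap for Cenpa, H2afj and Cenpp, and they overlap for Hist1h1c.

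No other gene of the centromere complex passed. Of the 12 genes of the constitutive centromere-associated network, 0 rose, 0 fell and 12 did not pass, with 4 positive and 8 negative log2 fold changes and a median of -0.06. Summed over the 12 genes, the level was 75.9, 82.1, 81.3 and 82.6 CPM in the libraries labelled KO, against 84.3, 78.9, 81.0 and 87.5 CPM in those labelled WT, and these ranges overlap. Cenpo and Cenpc1 made up most of this sum, so it says little of the lower genes. On simulated counts at average log2 CPM from 0 to 2, 18% of 1.5-fold changes were recovered. Changes of that size in the lower genes could thus be missed. Cenph and Cenpk, at means under 1 CPM, lie below the levels simulated. Exons of Cenpo overlap those of Adcy3 and Ptrhd1 on the opposite strand, and 27.0% of its 50-base stretches occur in other transcripts. Exons of Cenpt overlap those of Tsnaxip1, also on the opposite strand. Cenpc1, which encodes the CENP-C protein that binds the CENP-A nucleosome directly, had 25.8 ± 1.73 CPM in the libraries labelled KO and 28.1 ± 2.65 CPM in those labelled WT (SD, n = 4 each; adjusted p = 0.556 by edgeR).

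Cenpp, a member of the CENP-O group of the network, had 1.04, 1.53, 1.59 and 1.40 CPM in the libraries labelled KO, against 1.77, 1.84, 1.70 and 2.01 CPM in those labelled WT. The groups did not overlap, but the log2 fold change of -0.37 (SE 0.20) did not pass (adjusted p = 0.460 by edgeR). Its exons overlap those of Aspn and Ippk on the opposite strand, and 24.5% of its 50-base stretches occur in another gene's transcripts.

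Cenpw, partner of CENP-T in a histone-fold complex on centromeric DNA, had 1.72, 1.27, 1.85 and 1.14 CPM in the libraries labelled KO, against 2.61, 1.35, 1.90 and 2.20 CPM in those labelled WT, with groups that overlapped and a log2 fold change of -0.39 (SE 0.23). Cenph had the lowest log2 fold change of the members, -0.43 (SE 0.34), at 0.558 ± 0.186 CPM in the libraries labelled KO and 0.709 ± 0.224 CPM in those labelled WT. Cenpq leaned the other way, at 6.14 ± 0.494 CPM in KO-labelled and 5.27 ± 0.586 CPM in WT-labelled libraries (SD, n = 4 each), a log2 fold change of 0.23 (SE 0.12) with an adjusted p of 0.443 by edgeR. It shares exons with Mut on the opposite strand. The remaining network genes, Cenpt, Cenpo, Cenpn, Cenpl, Cenpm, Cenpi and Cenpk, had log2 fold changes from -0.07 to 0.22.

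The other 3 CENP genes have roles outside the network. Cenpb, which encodes a protein that binds a motif in centromeric satellite DNA, was the highest of the CENP genes, at 162 ± 6.21 CPM in the libraries labelled KO and 161 ± 9.56 CPM in those labelled WT (SD, n = 4 each; log2 fold change 0.003, SE 0.05). Cenpj, a gene of centriole assembly, had 4.33 ± 0.407 CPM in the libraries labelled KO and 4.12 ± 0.462 CPM in those labelled WT. Cenpv had a log2 fold change of -0.03 (SE 0.08). An exon of Cenpb overlaps one of Spef1 on the same strand.

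**Figure D3:**
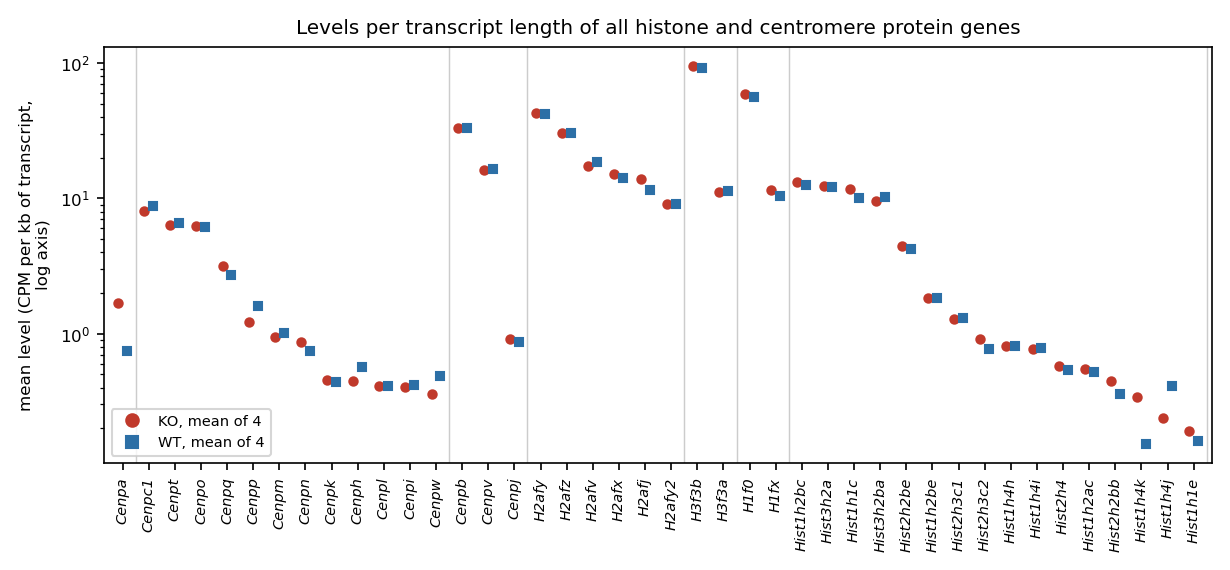
Mean level per kilobase of transcript (log axis) of all 42 genes in the libraries labelled KO (circles) and labelled WT (squares), 4 libraries each, grouped by role. H3f3b is the highest at 95.3 CPM per kb in KO-labelled and 91.4 CPM per kb in WT-labelled libraries, and the replication-dependent H4 genes are among the lowest.

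Set per kilobase of the longest coding transcript, the highest members were a gene of histone H3.3, a replacement linker histone and an H2A variant. H3f3b, of the pair of genes that encode histone H3.3, stood at 95.3 CPM per kb in the libraries labelled KO and 91.4 CPM per kb in those labelled WT, followed by the linker histone H1f0 at 59.1 CPM per kb in KO-labelled and 56.1 CPM per kb in WT-labelled libraries and by H2afy, the gene of macroH2A1, at 42.7 CPM per kb in KO-labelled and 42.0 CPM per kb in WT-labelled libraries. H3f3b gave 90.7, 89.6, 88.7 and 88.7% of the H3.3 level per kb in the libraries labelled KO, against 89.5, 88.8, 89.3 and 88.0% in those labelled WT. Cenpa, at 1.69 CPM per kb in the libraries labelled KO and 0.741 CPM per kb in those labelled WT, made up 1.27, 1.63, 1.52 and 1.95% of the summed level of Cenpa and the H3.3 genes in the libraries labelled KO, against 0.605, 0.772, 0.805 and 0.693% in those labelled WT. These shares of Cenpa did not overlap between the groups. As H3f3b and H3f3a had log2 fold changes of 0.06 and -0.02, this restates the difference in Cenpa itself. The lengths rest on the annotation, and 30.3% of the 50-base stretches of H3f3a occur in other genes, so levels per kb are approximate.

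None of the 10 replacement and variant histone genes passed, with 8 positive and 2 negative log2 fold changes and a median of 0.04. The closest was H2afj, the gene of the histone variant H2A.J, with 25.4, 27.2, 25.0 and 24.7 CPM in the libraries labelled KO, against 18.8, 21.3, 20.6 and 23.4 CPM in those labelled WT. All libraries labelled KO lay above all those labelled WT. Its log2 fold change, 0.28 with an SE of 0.07, did not pass (adjusted p = 0.0599 by edgeR). It passed with DESeq2 (adjusted p = 0.0498, but 0.0555 without independent filtering), in a fit blocked by replicate (adjusted p = 0.0258 by edgeR) and without WT replicate 4 (adjusted p = 0.0293), and leaving out 1 library gave adjusted p-values up to 0.187. Its share of the summed level per kb of the 6 H2A variants was 10.4, 11.2, 10.7 and 11.0% in the libraries labelled KO, against 8.02, 9.54, 8.94 and 10.2% in those labelled WT. An annotated miRNA gene overlaps its exons on the opposite strand.

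The other H2A variants had smaller log2 fold changes, and none passed. H2afx, whose product is phosphorylated at DNA breaks, had 21.1 ± 1.88 CPM in the libraries labelled KO and 19.5 ± 0.849 CPM in those labelled WT (SD, n = 4 each; log2 fold change 0.11, SE 0.07). Of the pair of genes for H2A.Z, H2afz had a log2 fold change of 0.02 (SE 0.07) and H2afv one of -0.09 (SE 0.07). H2afz gave 66.3, 63.5, 61.3 and 63.7% of their summed level per kb in the libraries labelled KO, against 63.4, 60.7, 62.0 and 61.3% in those labelled WT. Of the 50-base stretches of H2afz, 69.6% occur in other annotated transcripts, so its count is uncertain. The macroH2A genes H2afy and H2afy2 had log2 fold changes of 0.03 and 0.002.

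H3f3b had 289, 225, 230 and 215 CPM in the libraries labelled KO, against 255, 228, 226 and 210 CPM in those labelled WT. The highest library of either group was replicate 1, and without KO replicate 1 the log2 fold change of 0.06 (SE 0.10) was -0.04. H1f0, the linker histone of resting cells, was also highest in replicate 1 of each group, with 140, 120, 119 and 106 CPM in the libraries labelled KO, against 128, 119, 109 and 105 CPM in those labelled WT. The groups overlapped for both genes, and without both libraries numbered 1 neither passed (log2 fold change 0.01 for H3f3b and 0.05 for H1f0). H1fx had 14.1 ± 0.90 CPM in the libraries labelled KO and 12.7 ± 1.47 CPM in those labelled WT (SD, n = 4 each; log2 fold change 0.14, SE 0.09), and its exons overlap an antisense gene.

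**Figure D4:**
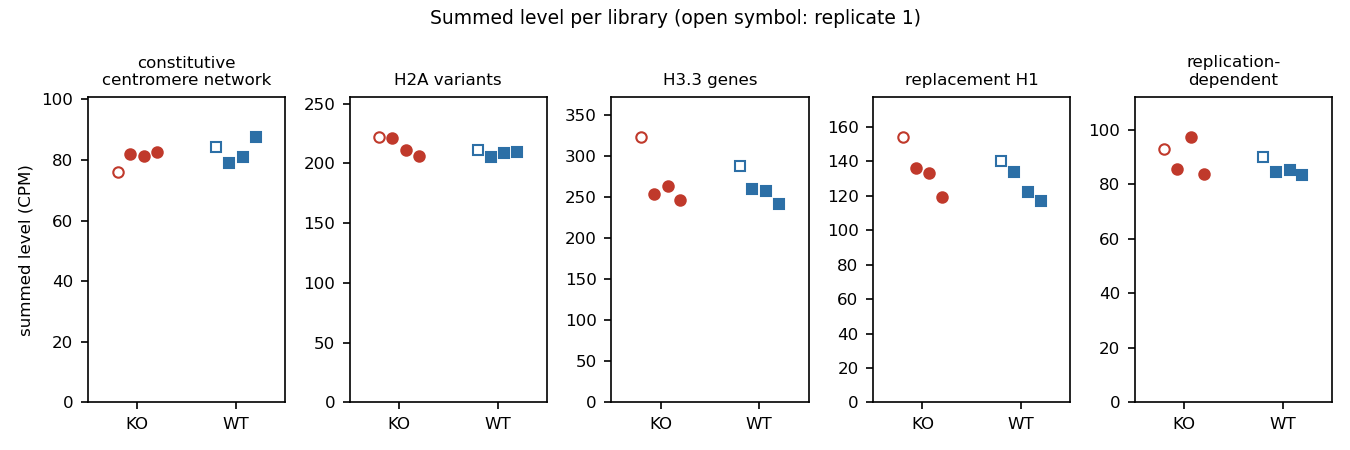
Summed level in CPM (axes from 0) of 5 gene groups in each library, labelled KO (circles) and labelled WT (squares), with replicate 1 as an open symbol. The ranges overlap in all 5 groups, and the H3.3 genes are highest in replicate 1 of both groups, at 323 CPM (labelled KO) and 288 CPM (labelled WT).

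The 16 replication-dependent histone genes summed to 93.1, 85.8, 97.3 and 83.8 CPM in the libraries labelled KO, against 90.1, 84.7, 85.1 and 83.3 CPM in those labelled WT, with overlapping ranges. Per kb they made up 16.2 ± 1.07% of all histone genes in the libraries labelled KO and 16.2 ± 0.0803% in those labelled WT (SD, n = 4 each). The 10 that had enough counts held 0 calls, with 9 positive log2 fold changes and a median of 0.05, and the other 6 were too low to test, at means of 0.106 to 0.679 CPM in the libraries labelled KO and 0.0477 to 0.565 CPM in those labelled WT. These were Hist1h1e, Hist2h2bb (whose identifier GENCODE M21 names Gm42743), Hist1h4h, Hist1h4i, Hist1h4j and Hist1h4k, of which Hist1h4k was at 0 in 1 library labelled KO and in 2 labelled WT.

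Hist1h1c, the gene of linker histone H1.2, had the lowest p of this group, with 19.2, 19.4, 19.4 and 15.1 CPM in the libraries labelled KO, against 15.7, 17.5, 15.7 and 14.0 CPM in those labelled WT. The libraries labelled KO, other than replicate 4, lay above all those labelled WT, and the log2 fold change of 0.22 (SE 0.09) did not pass (adjusted p = 0.319 by edgeR). In the per-library levels, Hist3h2a was the highest of the replication-dependent H2A genes, at 26.4 ± 2.78 CPM in the libraries labelled KO and 25.9 ± 1.10 CPM in those labelled WT. Its exons overlap those of Trim17 on the same strand, and 31.5% of its 50-base stretches occur in other transcripts. Its count is thus uncertain, and with it the Hist3 sum below, of which it is the larger part. Hist1h2bc was the highest of the H2B genes, at 15.2 ± 1.39 CPM in KO-labelled and 14.6 ± 0.233 CPM in WT-labelled libraries. Of its 50-base stretches, 30.6% occur in other transcripts, so its count and the Hist1 sum below, of which it is a part, are uncertain too. The highest H3 and H4 genes were low, Hist2h3c1 at 2.36 ± 0.349 CPM in KO-labelled and 2.37 ± 0.827 CPM in WT-labelled libraries and Hist2h4 at 0.948 ± 0.196 CPM in KO-labelled and 0.879 ± 0.243 CPM in WT-labelled libraries (SD, n = 4 each). Hist2h3c1 shares all of its 50-base stretches with other transcripts, Hist2h3c2 among them, so reads of these copies cannot be assigned with certainty.

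By genomic cluster, the Hist1 genes on chromosome 13 summed to 41.1 ± 4.29 CPM in the libraries labelled KO and 37.8 ± 1.06 CPM in those labelled WT, the Hist2 genes on chromosome 3 to 16.6 ± 0.391 CPM in KO-labelled and 15.7 ± 1.36 CPM in WT-labelled libraries, and the Hist3 genes on chromosome 11 to 32.3 ± 3.22 CPM in KO-labelled and 32.2 ± 1.87 CPM in WT-labelled libraries (SD, n = 4 each). Among genes with the stem-loop shown above, the level ranged from 0.185 ± 0.0585 CPM for Hist1h4j to 26.4 ± 2.78 CPM for Hist3h2a in the libraries labelled KO, and 0 of the 7 that were tested passed. Of the 3 tested replication-dependent genes without it, 0 passed.

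Counted over all 36 tested members, the groups did not overlap in 3 genes, 8.33%, against 7.67% of all tested genes. An unadjusted p under 0.05 was found for 3 members, 8.33%, against 12.6% of all tested genes. Both shares are near or below those of the whole table.

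Genes that deposit CENP-A or carry CENP proteins under other names did not pass. Of 10 listed, 1 was not in the table. Of the 9 tested, 0 rose, 0 fell and 9 did not pass, at a median log2 fold change of -0.12. Hjurp, the chaperone that brings CENP-A to the centromere, had 109, 131, 118 and 115 CPM in the libraries labelled KO, against 130, 126, 131 and 127 CPM in those labelled WT (log2 fold change -0.12, SE 0.05, adjusted p = 0.321 by edgeR). Mis18a, which licenses the centromere for new CENP-A, had 3.77 ± 0.745 CPM in the libraries labelled KO and 4.45 ± 0.488 CPM in those labelled WT.

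**Figure D5:**
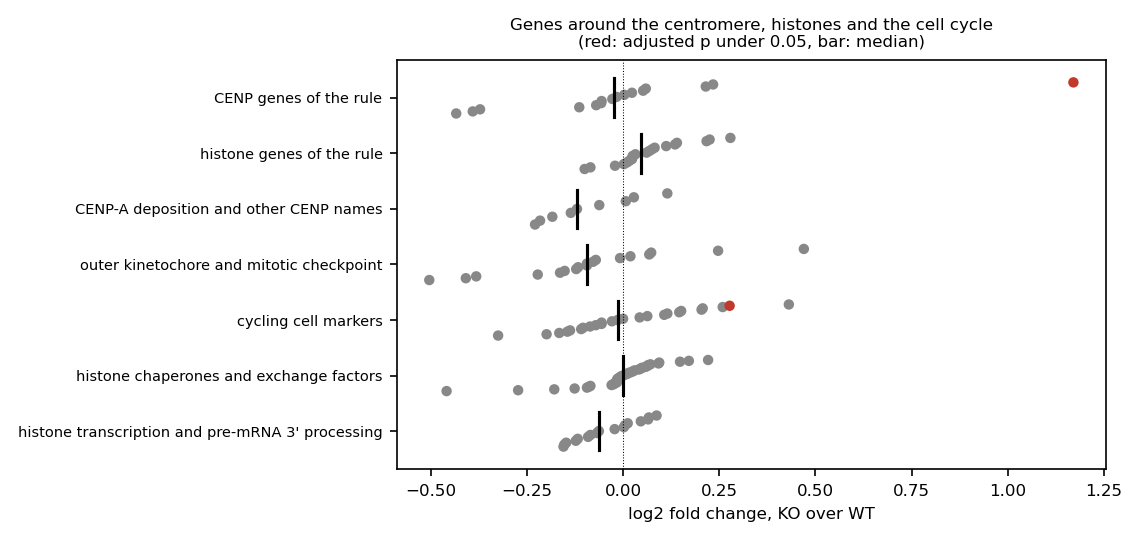
Log2 fold change, KO-labelled over WT-labelled libraries (n = 4 each), for tested genes (points) of 7 groups, with the median as a bar. Cenpa at 1.17 and the replication gene Gins2 at 0.28 are the 2 points past the threshold.

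Kinetochore and cell cycle genes gave 1 call. It was the only one over all 11 gene lists, 1 of 165 tested genes, against 1.43% of all tested genes. Of 29 outer kinetochore and checkpoint genes listed, 11 were not in the table. Of the 18 tested, 0 rose, 0 fell and 18 did not pass, at a median log2 fold change of -0.09. Dsn1 of the MIS12 complex had 3.43, 3.57, 3.12 and 4.01 CPM in the libraries labelled KO, against 4.12, 4.90, 4.35 and 4.92 CPM in those labelled WT (log2 fold change -0.38, SE 0.13, adjusted p = 0.213 by edgeR), and the checkpoint kinase Bub1b had 4.74 ± 1.12 CPM in KO-labelled and 6.74 ± 1.65 CPM in WT-labelled libraries (log2 fold change -0.50, SE 0.19, adjusted p = 0.28 by edgeR, 0.0258 with the replicate block). Of 25 tested cycling cell markers, 1 rose, 0 fell and 24 did not pass. Their log2 fold changes were positive in 12 genes and negative in 13, at a median of -0.01. The gene that rose was Gins2, a subunit of the replicative helicase, with 47.3, 53.6, 52.0 and 54.4 CPM in the libraries labelled KO, against 43.4, 43.1, 43.2 and 41.6 CPM in those labelled WT (log2 fold change 0.28, SE 0.05, adjusted p = 0.0106 by edgeR).

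Of 35 cycling markers listed, 9 were not in the table. None of the other 26 was at 0 in every library, but only 4 of all 17613 genes were. Together, the 26 cycling markers in the table came to 177 to 192 CPM in the libraries labelled KO and to 172 to 177 CPM in those labelled WT. Gins2 alone averaged 51.8 ± 3.16 CPM of this in the libraries labelled KO and 42.8 ± 0.807 CPM in those labelled WT. The log2 fold changes of the list ran from -0.33 for Top2a to 0.43 (SE 0.26) for Cdc20, an activator of mitotic exit, which had 1.34 ± 0.129 CPM in KO-labelled and 0.955 ± 0.362 CPM in WT-labelled libraries. Mcm5 of the replicative helicase leaned upward too, at 0.20 (SE 0.12), and neither passed. Of the genes taken to define cycling cells, Top2a had 1.32 ± 0.33 CPM in the libraries labelled KO and 1.64 ± 0.385 CPM in those labelled WT (log2 fold change -0.33, SE 0.23), Ccna2 had 8.44 ± 0.238 CPM in KO-labelled and 8.89 ± 0.862 CPM in WT-labelled libraries, and Cdk1 was too low to test at 0.418 ± 0.111 CPM in KO-labelled and 0.329 ± 0.143 CPM in WT-labelled libraries. Mki67 and Ccnb1, also planned as such markers, were not among the 26 in the table, so no level is given for them. The part of the share of dividing cells in the level of Cenpa was not tested.

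Histone chaperones and the machinery of histone mRNA did not pass either. The 36 chaperone and exchange factor genes had 37 entries, as Srcap was entered more than once, and 0 passed. Of these entries, 19 leaned upward and 18 downward, around a median log2 fold change of 0.0. Anp32a, an acidic nuclear protein, had 179 ± 8.59 CPM in the libraries labelled KO and 159 ± 6.45 CPM in those labelled WT (adjusted p = 0.0705 by edgeR), and Rbbp7, a histone-binding subunit of several chromatin complexes, had 128 ± 2.73 CPM in KO-labelled and 115 ± 3.09 CPM in WT-labelled libraries (SD, n = 4 each; adjusted p = 0.0903 by edgeR). Both passed with DESeq2 and with the replicate number as a block. Of 17 genes of histone transcription and mRNA end processing, 0 passed, at a median log2 fold change of -0.06. Npat, the coactivator of replication-dependent histone genes, had 36.1, 36.8, 36.3 and 33.7 CPM in the libraries labelled KO, against 38.0, 40.3, 37.9 and 38.9 CPM in those labelled WT (log2 fold change -0.12, SE 0.05, adjusted p = 0.372 by edgeR). Slbp, whose product binds the stem-loop, had 27.3 ± 0.583 CPM in KO-labelled and 27.1 ± 0.913 CPM in WT-labelled libraries, and Cstf2, a cleavage factor, had 146 ± 2.71 CPM in KO-labelled and 155 ± 3.06 CPM in WT-labelled libraries (SD, n = 4 each).

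Markers of other cells in the tissue held no call. An unadjusted p under 0.05 by edgeR was found for 5 of 10 endothelial and 5 of 10 neuron markers, against 12.6% of all tested genes. The other lists gave 3 of 11 for microglia, 3 of 16 for progenitors and young neurons, 0 of 7 for oligodendrocyte precursors and 0 of 6 for blood cells. Of all 15902 tested genes, 7627 had positive and 8275 negative log2 fold changes. Of the 12 blood cell markers listed, 6 were not in the table, as was 1 each of the progenitor and oligodendrocyte precursor markers. The summed level of 16 markers of progenitors and young neurons was 778 to 817 CPM in the libraries labelled KO and 787 to 850 CPM in those labelled WT, with Sox11 at 3.67 ± 0.161 CPM in KO-labelled and 2.58 ± 0.523 CPM in WT-labelled libraries and Dcx at 41.7 ± 5.45 CPM in KO-labelled and 48.8 ± 3.37 CPM in WT-labelled libraries. Oligodendrocyte precursor markers summed to 324 to 333 CPM in KO-labelled and 310 to 344 CPM in WT-labelled libraries, microglia markers to 459 to 489 CPM in KO-labelled and 456 to 516 CPM in WT-labelled libraries, endothelial markers to 225 to 253 CPM in KO-labelled and 243 to 272 CPM in WT-labelled libraries, and blood cell markers to 54.2 to 87.0 CPM in KO-labelled and 53.7 to 78.3 CPM in WT-labelled libraries. The microglial receptor gene P2ry12 had 28.5 ± 1.99 CPM in the libraries labelled KO and 34.3 ± 3.19 CPM in those labelled WT (log2 fold change -0.26, adjusted p = 0.0903 by edgeR, 0.0219 with the replicate block), while the complement gene C1qb, also of microglia, had 46.2 ± 2.09 CPM in KO-labelled and 41.3 ± 3.49 CPM in WT-labelled libraries (log2 fold change 0.16, adjusted p = 0.273). Of the 11 microglia markers, 5 had positive and 6 negative log2 fold changes. The endothelial receptor gene Tek had 12.8 ± 0.664 CPM in KO-labelled and 14.9 ± 0.743 CPM in WT-labelled libraries (adjusted p = 0.20), and Flt1, another endothelial receptor gene, had 57.5 ± 3.18 CPM in KO-labelled and 63.9 ± 4.38 CPM in WT-labelled libraries (adjusted p = 0.243 by edgeR); 8 of the 10 endothelial markers had negative log2 fold changes. The markers with the lowest p leaned both ways among oligodendrocyte precursors, with log2 fold changes of -0.09 for Pdgfra and 0.13 for Olig2, and among blood cells, with -0.12 for Ptprc and 0.09 for Hba-a2. All 10 neuron markers had positive log2 fold changes, at a median of 0.08, and 0 passed; Nefl, of the neurofilament light chain, had 652 ± 9.05 CPM in KO-labelled and 593 ± 24.7 CPM in WT-labelled libraries (SD, n = 4 each; adjusted p = 0.0815 by edgeR), and Nefm, of the medium chain, had 363 ± 10.2 CPM in KO-labelled and 329 ± 19.2 CPM in WT-labelled libraries (adjusted p = 0.135). Nefl passed with DESeq2 (adjusted p = 0.0233), with the replicate block (0.0303) and without WT replicate 4 (0.0365), and Nefm with the block (0.0331) and without WT replicate 4 (0.0392). The part of the cell makeup of the samples in these results was not tested.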

How the data were processed

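Polyadenylated RNA of 8 mouse brain libraries, 4 labelled KO and 4 labelled WT, was made into stranded libraries, per the labels' protocols. The deposited table holds expected counts per gene, unscaled, with 91.5% of values whole within 0.001. TopHat2 2.0.9 and edgeR are listed with GRCm38 (mm10) in the submitters' processing notes, without roles. How reads were counted, and whether by strand, is not given in the sources used here; reads of overlapping or antisense genes cannot be told apart.

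Expected counts were rounded, and 15902 genes passed filterByExpr. The whole table was fitted with edgeR 4.0.16 (R 4.3.3; TMM factors, robust quasi-likelihood, group as the only term), with Benjamini-Hochberg adjustment over all genes at 0.05. Each SE comes from the coefficient and its F statistic. CPM uses the TMM-scaled library sizes, and levels per kb use the longest protein-coding transcript of GENCODE M21, in which all 42 genes were found. Stretches of 50 bases were looked up in all GENCODE transcripts on both strands. Members with exons shared with another gene, or with at least 10% of stretches shared, were 27 of 42.

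No pair of libraries in a group looked like repeat deposits of 1 library (chi-square of counts per degree of freedom 2.43 to 4.91), which does not show that they are separate animals. The members and the 11 gene lists were chosen with earlier results of these data known. Genes named are those past the threshold, the 10 members next in p, the highest of each class, and of each list those past the threshold or the 2 lowest in p; other genes named were picked with values in view. On simulated counts for KO against WT over 15902 genes, with 50 changed at each size and average log2 CPM from 0 to 2, a level like that of Cenpa, 82% were recovered at 2-fold and 18% at 1.5-fold. Alternatives were median-ratio and upper-quartile factors, 2 other filters, DESeq2 1.42.0, limma-voom (limma 3.58.1), a replicate block and each library left out. DESeq2 without independent filtering, and leaving out both libraries numbered 1, were chosen after seeing the data.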

Additional observations from a re-analysis of the deposited data

Results flagged for a closer look

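A single library far from the other 3 of its group was found in 3 of the 84 sets of 4 libraries examined over the 42 genes, where chance gives about 1 in 20. Hist1h1c was low in KO replicate 4, at 15.1 CPM against 19.2 to 19.4 CPM in the other libraries labelled KO. Cenpb was high in KO replicate 2, at 171 CPM against 158 to 160 CPM. Cenpn was low in KO replicate 3, at 1.16 CPM against 1.64 to 1.72 CPM.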

How the results depend on the processing

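Cenpa passed with edgeR under every scaling, filter and left-out library, with limma-voom (adjusted p = 0.00254) and without both libraries numbered 1 (adjusted p = 0.011 by edgeR). DESeq2 with independent filtering gave it no adjusted p (unadjusted p = 1.89e-05, log2 fold change 1.18), and without that filtering the adjusted p was 0.00245. The number of members past the threshold was 1 to 2 without 1 library and 2 with the replicate block, H2afj being the added one; with DESeq2 and its filtering the 1 member that passed was H2afj. Of 707 values of 42 single genes under the alternatives, 0 changed sign past the threshold and 0 lost it, while 17 values of 7 genes came to pass it. Values without an adjusted p, among them that of Cenpa with DESeq2 and its filtering, are not in the 707. The median log2 fold change of the members was 0.018 to 0.062 without 1 library, the highest without KO replicate 4, and -0.017 without members that overlap or share copies. Of all genes, 228 passed, 110 without WT replicate 3 and up to 324 without KO replicate 2, and 495 with the replicate block. List genes past the threshold numbered 1, 1 to 3 without 1 library, 4 with DESeq2 with or without independent filtering, and 9 with the block. Same-numbered libraries deviated together at r = 0.216 for number 1 and at 0.0749, 0.0332 and 0.0669 for the others. Differently numbered libraries gave r from -0.152 to 0.0983, so a factor shared by the libraries numbered 1 is possible and was not tested. The labels do not say whether equal numbers share a litter, batch or day, so the block was kept as an alternative. At under 1 CPM the depth limits what can be seen: 6 members could not be tested.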
